A study of Rattus norvegicus with 15 samples.

Results

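The organic anion, organic cation and drug transporters of the kidney were described here through the 8 genes Slc22a2, Slc22a5, Slc22a6, Slc22a8, Slco1a1, Abcb1a, Abcb1b and Abcc2. Every probe set that the array platforms annotate to one of these genes was taken, which gave 9 of 26379 probe sets. Of these, 7 were on array design A, 1 on design B (Abcb1a) and 1 on design C (Slc22a8). Probe sets were found by symbol alone, while the genes themselves were chosen with earlier results of these data known.

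Total RNA from kidneys of 5-week-old rats was hybridised to 15 single-channel oligonucleotide arrays, 5 of each design, and the arrays of a design are numbered 1 to 5. On designs B and C, kidneys 4 and 5 came from a strain congenic for chromosome 10 on the Dahl salt-sensitive background (n = 2), and kidneys 1 to 3 came from Dahl salt-sensitive rats (Dahl S, n = 3). The congenic strain shares its genome with Dahl S outside a chromosome 10 segment. The sources used here give neither the donor strain nor the segment's extent, and no sex or diet. On design A all 5 kidneys are described as Dahl S, although the numbers 4 and 5 belong to congenic kidneys on the other designs. Strain was left unsettled for these 2 kidneys, and on design A each kidney is given by its own value, with no strain test. Whether same-strain kidneys were from separate rats is unstated, so p-values reflect the scatter of these arrays alone, possibly a technical one. Precision is limited by how few arrays there are. Each kidney was measured on 1 array of a design, so the error of a single value is unknown.

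Proximal tubule cells clear drugs, toxins and metabolites from blood into urine in a pair of steps. Carriers of the basolateral membrane take up organic anions (Slc22a6, also called OAT1, and Slc22a8, OAT3) and organic cations (Slc22a2, OCT2). Carriers and pumps of the luminal membrane pass compounds into the urine or take them back: Slc22a5 (OCTN2) recovers carnitine together with sodium, and Slco1a1 is an organic anion transporting polypeptide of the rat proximal tubule. Abcb1a and Abcb1b, the rat genes for P-glycoprotein, and Abcc2 (MRP2) are ATP-driven export pumps. Slc22a2, Slc22a6, Slc22a8 and Abcc2 lie on chromosome 1, Slco1a1, Abcb1a and Abcb1b on chromosome 4, and Slc22a5 on chromosome 10, the chromosome that carries the congenic segment. In the gene order of the rat assembly GRCr8, Slc22a8 and Slc22a6 are direct neighbours, and so are Abcb1b and Abcb1a.

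The tissue label was checked against marker genes. All 13 proximal tubule probe sets of design A (7 genes, among them Lrp2, Aqp1 and Slc34a1) passed the filter used below, as did both thick ascending limb probe sets (Umod and Slc12a1). Of 11 liver probe sets on design A 1 passed, of 4 adrenal probe sets 1, and of 3 skeletal muscle probe sets 0. On design C 1 of 2 liver probe sets and the 1 skeletal muscle probe set passed. Median signal per array lay between 294.5 and 334.3 on design A, 472.8 and 519.5 on B, and 491.3 and 524.4 on C.

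Promoter sequences are shown for 3 of the transporters that gave a clear signal: Slc22a8, the member with a strain comparison, Slc22a5, the member on chromosome 10, and Slc22a2, whose order of kidneys was unlike theirs. Each line gives the 250 bases before the annotated gene start, 5′ to 3′ on the gene's strand, from RefSeq on GRCr8, which held a promoter entry for 7 of the 8 genes. The windows are chr1:214927034-214927283 (plus strand) for Slc22a8, chr10:38536073-38536322 (minus strand) for Slc22a5 and chr1:50711020-50711269 (minus strand) for Slc22a2. Capitals mark exact matches, on either strand, to GTTAAT (a hepatocyte nuclear factor 1 half-site), GGGCGG (a GC box) or CCAAT.
Slc22a8: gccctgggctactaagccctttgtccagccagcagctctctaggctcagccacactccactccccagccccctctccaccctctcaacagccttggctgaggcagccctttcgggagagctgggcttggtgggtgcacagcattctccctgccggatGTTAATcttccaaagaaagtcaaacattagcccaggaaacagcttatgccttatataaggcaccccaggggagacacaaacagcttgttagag
Slc22a5: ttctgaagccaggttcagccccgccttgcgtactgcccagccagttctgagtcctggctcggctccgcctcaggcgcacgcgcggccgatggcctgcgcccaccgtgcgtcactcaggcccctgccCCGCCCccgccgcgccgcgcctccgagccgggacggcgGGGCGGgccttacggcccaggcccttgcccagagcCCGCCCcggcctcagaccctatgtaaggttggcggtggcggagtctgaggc
Slc22a2: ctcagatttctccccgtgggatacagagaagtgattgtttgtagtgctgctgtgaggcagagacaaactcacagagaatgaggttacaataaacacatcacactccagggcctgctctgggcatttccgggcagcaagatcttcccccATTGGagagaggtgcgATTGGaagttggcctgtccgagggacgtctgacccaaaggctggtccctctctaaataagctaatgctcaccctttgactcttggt

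The Slc22a8 window held the GTTAAT letters, which occur in 6.45% of the 33469 promoter windows of the same length. The Slc22a5 window was 74.4% G and C, against a median of 51.2% over all windows, and held the GC box letters at 3 places (30.5% of windows hold them at least once). The Slc22a2 window held CCAAT, read on the other strand, at 2 places (34% of windows hold it). The marked stretches do not overlap each other, and a match of letters does not show that a factor binds there.

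Of the uptake carriers for organic anions, Slc22a6 (probe set AB004559_at, design A) had a signal intensity of 6453 in kidney 4 and 4282 in kidney 5, against 4554, 6116 and 5135 in Dahl S kidneys 1 to 3. Its mean over the Dahl S kidneys was 5268 ± 790 (SD, n = 3). Kidney 4 was the highest and kidney 5 the lowest, and the Dahl S kidneys lay between them. The neighbouring gene Slc22a8 (rc_AI169656_at, design C) had a signal of 10592 and 7381 in congenic kidneys 4 and 5, against 8621, 10125 and 7448 in Dahl S kidneys 1 to 3. Here too kidney 4 was the highest and kidney 5 the lowest, so that the Dahl S values lay within the span of the congenic ones.

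Of the 8 genes, Slc22a8 was the 1 with a probe set past the filter on a design where the strains could be compared. Its signal averaged 8987 ± 2271 in congenic kidneys (SD, n = 2) and 8731 ± 1342 in Dahl S kidneys (SD, n = 3). The log2 difference, congenic minus Dahl S, was 0.03 (SE 0.21), with a 95% interval of −0.45 to 0.51 (limma adjusted p = 0.980 over the 4420 tested probe sets of design C). In folds the interval runs from 0.730 to 1.43 and so holds changes of either sign. It is not a detection limit, and the smallest change that would pass the adjusted threshold was not tested. On design C 0% of the tested probe sets passed an adjusted p of 0.05 (274 of 4420, or 6.2%, had an unadjusted p under 0.05), and on design B 0.0912% passed. The sign of the Slc22a8 difference rested on single kidneys: it was −0.23 without congenic kidney 4, 0.29 without congenic kidney 5 and −0.08 without Dahl S kidney 3.

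The cation carrier Slc22a2 (D83044_at, design A) had a signal of 8255 in kidney 4 and 7664 in kidney 5, against 5903, 5166 and 7077 in Dahl S kidneys 1 to 3 (mean 6048 ± 964, SD, n = 3). It was the 1 member above the filter on design A whose kidneys 4 and 5 both lay above every Dahl S kidney, which held for 8.82% of the 4411 probe sets past the filter there. Kidney 2, the highest Dahl S kidney for Slc22a6, Slc22a8 and Slco1a1, was the lowest of all 5 for Slc22a2. Because the strain of kidneys 4 and 5 on design A is unsettled, this was not tested as a strain difference. Of the 3 control genes whose ratio of 3′ to 5′ signal measures RNA integrity, GAPDH stood at 1.040 in kidney 4 and 1.043 in kidney 5, against 1.065 to 1.072 in the Dahl S kidneys, and beta-actin at 1.322 and 1.347, against 1.422 to 1.552. The hexokinase ratio overlapped, at 3.074 and 2.291 in kidneys 4 and 5, against 2.059 to 3.19 in the Dahl S kidneys. The part of RNA integrity in the Slc22a2 values was not tested.

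The carnitine carrier Slc22a5 (AB017260_s_at, design A) had a signal of 3166 in kidney 4 and 1847 in kidney 5, against 2845, 2755 and 2049 in Dahl S kidneys 1 to 3 (mean 2550 ± 436, SD, n = 3). Kidney 4 was again the highest and kidney 5 the lowest, 1.71-fold apart. Slc22a5 lies on chromosome 10, and its kidneys 4 and 5 stood on opposite sides of the Dahl S kidneys. With the strain of these kidneys unsettled, a strain difference was not tested. Slco1a1 (L19031_at, design A) had a signal of 2767 in kidney 4 and 2353 in kidney 5, against 1833, 3030 and 1689 in Dahl S kidneys 1 to 3. Its Dahl S mean was 2184 ± 736 (SD, n = 3), a coefficient of variation of 33.7%, while that of the other 4 measured carriers lay between 15.0% and 17.1%. Kidney 2 was the highest and kidney 3 the lowest, 1.79-fold apart, so the widest gap for this gene lay within Dahl S.

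**Figure D1:**
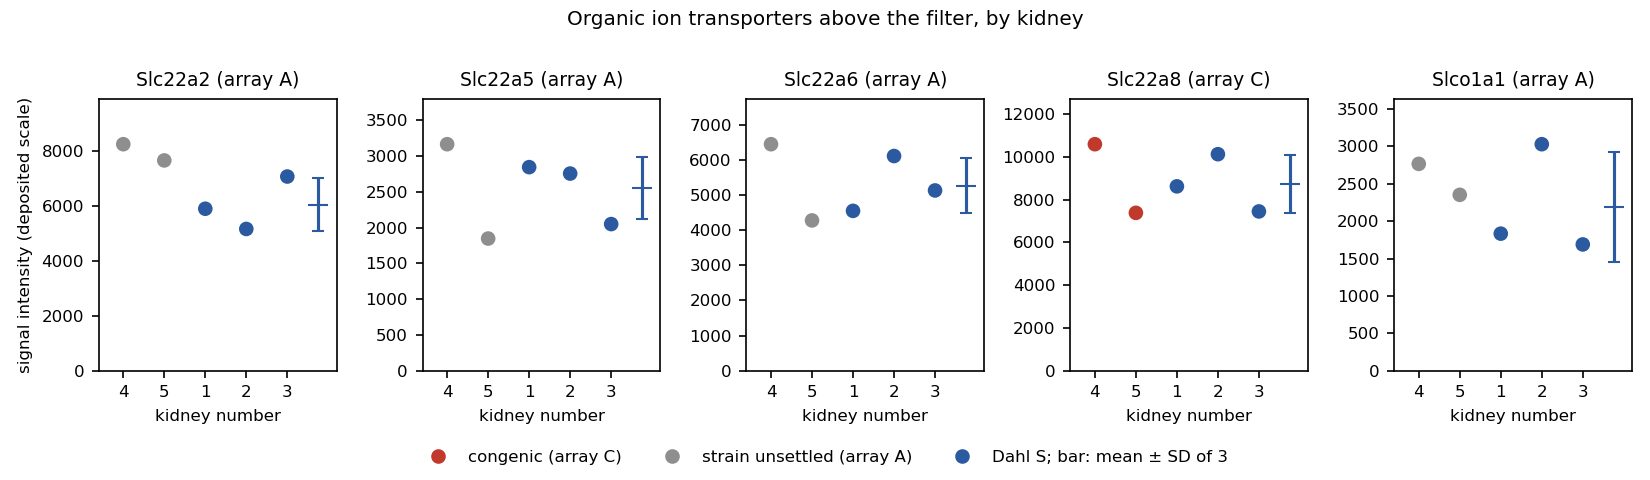
Signal intensity (vertical axes, linear from 0, a scale of its own per gene) of the 5 transporters above the filter, by kidney number. Red points are congenic kidneys (design C), grey points the kidneys of unsettled strain (design A) and blue points Dahl S kidneys, with the Dahl S mean ± SD at the right. Kidney 4 lies highest and kidney 5 lowest for Slc22a5, Slc22a6 and Slc22a8, and both lie above the Dahl S kidneys for Slc22a2.

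The 3 export pump genes gave little or no signal on these arrays. The filter asked for a mean over the 5 kidneys at or above the median of all values of the design (319.5 on A, 485.8 on B, 510.3 on C), and values under the 25th percentile (85.1 on A, 140.1 on B, 153.6 on C) were raised to it as a floor. All 4 probe sets of Abcb1a, Abcb1b and Abcc2 missed the filter, while the 5 carriers passed. Abcb1b (M81855_at) was below the floor in all 5 kidneys, at 52.3 and 74.2 in kidneys 4 and 5 and at 62.5, 13.7 and 18.5 in Dahl S kidneys 1 to 3. Abcc2 (D86086_s_at) was at 52.7 and 193.4 in kidneys 4 and 5, against 32.9, 44.3 and 63.5 in Dahl S kidneys 1 to 3. Kidney 5 was thus the 1 kidney in which Abcc2 stood above the floor. Values this low have no reliable order, and no fold is given for them.

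Abcb1a was read by a probe set on each of 2 designs, and both stayed near the floor. On design A (S66618_at) it was at 66.8 and 39.5 in kidneys 4 and 5, against 76.2, 147.1 and 128.0 in Dahl S kidneys 1 to 3. On design B (rc_AI045221_at) it was at 30.9 and 172.5 in congenic kidneys 4 and 5, against 13.4, 156.7 and 39.5 in Dahl S kidneys 1 to 3. On each design 3 of the 5 values lay below the floor, so no order of the kidneys is read from either. The design B probe set missed the filter. With no filter, its log2 difference, congenic minus Dahl S, was 0.10 (95% interval −0.29 to 0.48, limma adjusted p = 0.979), with values at the floor in both strains. Abcb1a and Abcb1b are close paralogs, and the files do not show whether their probes tell the transcripts apart. A low signal bounds what these probes detected and does not show that the transcript was absent.

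**Figure D2:**
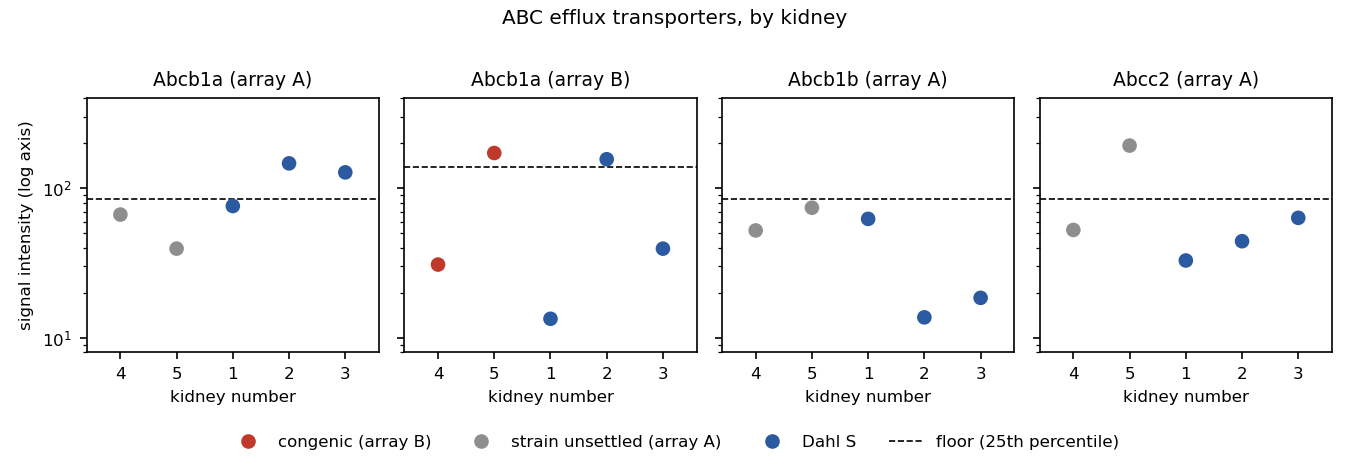
Signal intensity (log axis) of the 4 probe sets of Abcb1a, Abcb1b and Abcc2 by kidney number, with red for congenic (design B), grey for unsettled strain (design A) and blue for Dahl S kidneys. Dashed lines are the floors of 85.1 (A) and 140.1 (B). All 5 Abcb1b values and 4 of 5 Abcc2 values lie below the line.

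All 5 measured carriers ranged more widely between kidneys than the median probe set of their design. On design A the range over the 5 kidneys was 1.51-fold for Slc22a6, 1.60-fold for Slc22a2, 1.71-fold for Slc22a5 and 1.79-fold for Slco1a1, beside a median of 1.445-fold over the 4411 probe sets past the filter. On design C it was 1.44-fold for Slc22a8, beside a median of 1.36-fold. On the log2 scale the ranges of Slco1a1 (0.84) and Slc22a5 (0.78) lay above the 75th percentile of design A (0.76). The other carriers lay below the 75th percentile of their design. The SD of the log2 values within Dahl S lay between 0.21 for Slc22a6 and 0.46 for Slco1a1, beside a median of 0.19 on design A and 0.16 on design C.

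For 3 of the 5 carriers (Slc22a5, Slc22a6 and Slc22a8) kidney 4 was the highest and kidney 5 the lowest of the 5, a pattern noticed in these values. It held for 5.01% of the probe sets past the filter on design A and for 5.61% on design C. Kidney 4 over kidney 5 was 1.71-fold for Slc22a5, 1.51-fold for Slc22a6 and 1.44-fold for Slc22a8, and 1.08-fold for Slc22a2 and 1.18-fold for Slco1a1, the carriers without the pattern. Over all probe sets past the filter the median difference between these kidneys, in either direction, was 1.18-fold on design A and 1.145-fold on design C. The pattern itself sets the gap between kidneys 4 and 5 above the Dahl S range, so nothing is read from the size of that gap. With quantile normalisation, tried after these values were seen, kidney 3 in place of kidney 5 was the lowest for Slc22a8.

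Slc22a25, a further member of the family and the neighbour of Slc22a8 on its other side, was picked out after its values were seen. Its signal on design A was 3160 in kidney 4 and 2372 in kidney 5, against 2511, 3034 and 2472 in Dahl S kidneys 1 to 3. The adjacent genes Slc22a25, Slc22a8 and Slc22a6 thus shared the order kidney 4, then kidney 2, with kidney 5 last. That order held for 2.54% of probe sets on design A and 2.04% on design C. Of the other 13 transporter probe sets past the filter on design A, Slc22a25 was the 1 with kidney 4 highest and kidney 5 lowest.

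The designs were hybridised separately, and the labels do not say that a number stands for the same RNA on each. Across the 429 genes past the filter on both A and C, deviations from the gene's mean correlated between arrays of the same number at 0.27 for kidney 4 and 0.20 for kidney 1. The other same numbers gave 0.005 to 0.07, while arrays of different numbers gave −0.27 to 0.08. The match of Slc22a8 with the design A genes is to be read with that limit, above all for kidneys 2, 3 and 5.

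Proximal tubule markers were lowest in kidney 5 in sum, while kidney 4 was not set apart from the Dahl S kidneys once Pck1 was left out. Summed over the 13 proximal tubule probe sets of design A, signal was 198320 in kidney 4 and 156337 in kidney 5, against 187897, 207399 and 183550 in Dahl S kidneys 1 to 3. Kidney 5 was the lowest for 6 of the 13 and kidney 4 the highest for 3 of the 13 (over all probe sets past the filter 16.5% and 17.6%), and none of the 7 genes was at the floor in any kidney. Several of the 13 probe sets read the same gene. The 6 were probe sets of Slc34a1, Lrp2 and Aqp1, while Cubn, Slc5a2, Ggt1 and Pck1 were lowest in other kidneys. Bright probe sets weigh most in these sums. The brightest, of Slc34a1, had 33515 in kidney 5, against 54434, 62655 and 48780 in Dahl S kidneys 1 to 3. Cubn was highest in kidney 5, at 5512 against 3467, 3170 and 3970, as was another Slc34a1 probe set, at 3862 against 3046, 2837 and 2984. Pck1, the gluconeogenic enzyme of this segment, had a signal of 14299 in kidney 4 and 5010 in kidney 5 on design A, against 5048, 5358 and 4802 in Dahl S kidneys 1 to 3. On design C the 4 proximal tubule probe sets summed to 129244 in congenic kidney 4 and 97279 in congenic kidney 5, against 108396, 123188 and 122878 in Dahl S kidneys 1 to 3. Kidney 4 was the highest for 1 of these 4, Pck1, and kidney 5 the lowest for 3 of the 4. These 4 probe sets read 3 genes, and the share of all design C probe sets with kidney 5 lowest is not given here. The brightest, of Miox, had 65328 in kidney 5, against 70899, 85966 and 83614 in Dahl S kidneys 1 to 3. The other Miox probe set had 2725 in kidney 5, within the Dahl S values of 2197, 2833 and 2903. Without Pck1 the design C markers summed to 87960 and 78717 in congenic kidneys 4 and 5, against 84781, 101096 and 99708 in Dahl S kidneys 1 to 3. On design A it was then 184021 and 151327 in kidneys 4 and 5, against 182849, 202041 and 178749 in Dahl S kidneys 1 to 3. All 3 collecting duct probe sets of design A were highest in kidney 4. In whole kidney, fewer cells of a type and less RNA per cell cannot be told apart, and the part of these marker levels in the carrier values was not tested.

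**Figure D3:**
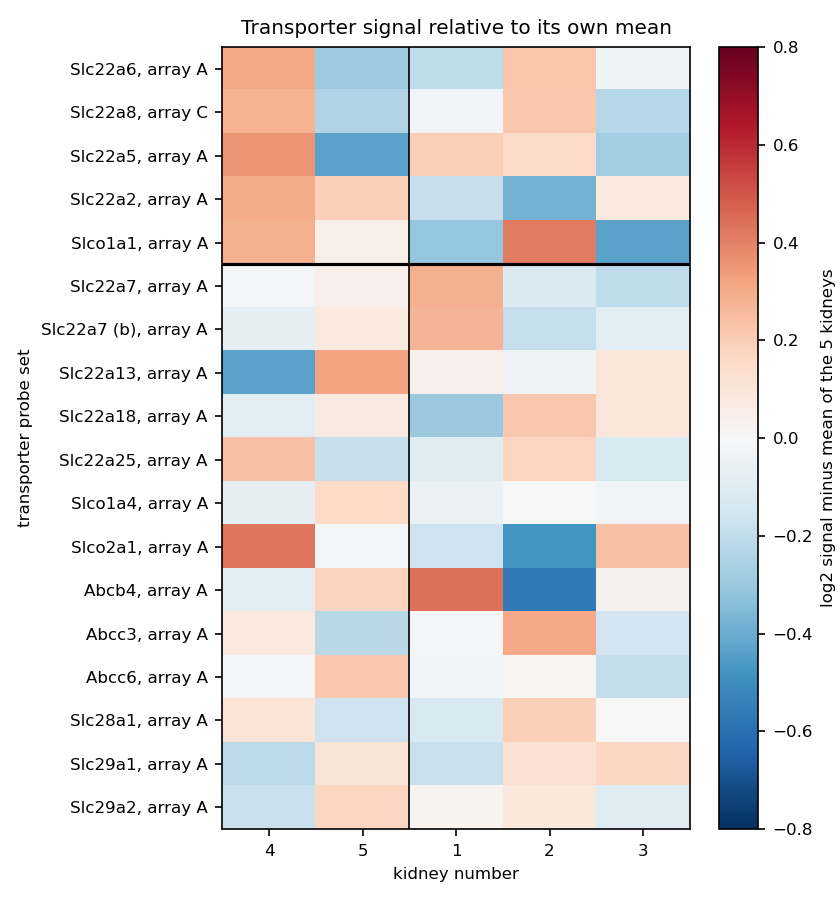
Log2 signal of each transporter probe set past the filter minus its own mean over the 5 kidneys (colour, red above and blue below the mean). Columns are kidneys 4 and 5, then Dahl S kidneys 1 to 3, and the horizontal line separates the 5 carriers described here (Slc22a8 on design C, the others on A) from the 13 further transporter probe sets of design A, where (b) marks a second probe set of a gene. Slc22a6, Slc22a8, Slc22a5 and Slc22a25 share red in kidney 4 and blue in kidney 5. Other rows, among them Slc28a1 and Abcc3, also lie above their mean in kidney 4 and below it in kidney 5.

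Slco1a1 had the widest range of the 5 carriers, and the genes with the profile nearest to it over the 5 kidneys were looked up on design A. Likeness was the root mean square difference of log2 values, each gene centred on its own mean, over 3690 named probe sets. The nearest were Hnmt, which methylates histamine (0.05), Pdhb, the beta subunit of pyruvate dehydrogenase (0.05), Cat, the peroxisomal enzyme catalase (0.08), Lypla1, a thioesterase (0.10), and Bbx (0.10). Hnmt had a signal of 5275 in kidney 4 and 4530 in kidney 5, against 3820, 5799 and 3320 in Dahl S kidneys 1 to 3, the same order of kidneys as Slco1a1. Among the carriers the nearest pair was Slc22a6 and Slc22a8 (0.12), followed by Slc22a5 and Slc22a8 (0.14), and the farthest was Slc22a2 and Slc22a5 (0.43). With 5 kidneys these are descriptions, and many genes can be this near.

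**Figure D4:**
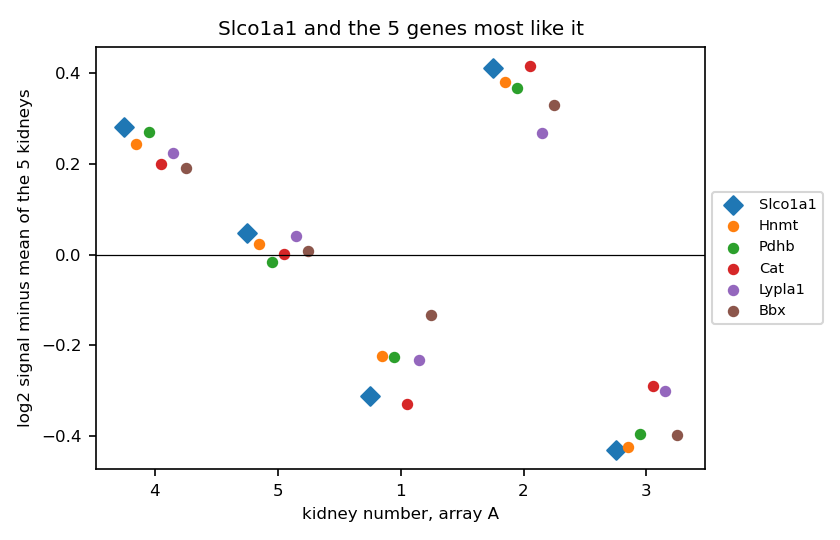
Log2 signal minus the mean of the 5 kidneys (vertical axis) for Slco1a1 (diamonds) and the 5 genes nearest to it (circles) on design A, by kidney number. All 6 genes are highest in kidneys 2 and 4 and below their mean in kidneys 1 and 3.

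Further transporters, their scaffolds and their regulators were taken from 6 lists. The lists were chosen with earlier results of these data known, so their shares beside the background are descriptions and not a test. On design C 14 of their probe sets passed the filter and on design B 9, and none of these 23 passed an adjusted p of 0.05 in limma (background 0% and 0.0912%). On design C 12 of 14 were higher in congenic kidneys, with a median log2 difference of 0.29, where 47.9% of all tested probe sets were higher and their median was −0.01. On design B 6 of 9 were higher, with a median of 0.13, beside 48.6% and a median of −0.01. The strains did not overlap for 8 of 14 probe sets on design C (22.4% of all tested) and for 4 of 9 on design B (17.2% of all tested). An unadjusted p under 0.05 was reached by 4 of 14 on design C (6.2% of all tested) and by 0 of 9 on design B (3.49%). Other measures also differed between the strains. On design C the GAPDH ratio of 3′ to 5′ signal was 1.053 and 1.045 in congenic kidneys 4 and 5, against 1.09 to 1.108 in Dahl S kidneys, while the hexokinase and beta-actin ratios of the strains overlapped. The podocyte marker Podxl differed by 0.53 on design C and 0.60 on design B, and the liver marker Apoh by 0.47 on design C with no overlap, none past the limma threshold. Apoh lies on chromosome 10, and the other liver probe set of design C, of Alb, was below the floor in all 5 kidneys. Of the 4 proximal tubule and 4 leukocyte probe sets of design C, 2 each were higher in congenic kidneys. The part of RNA integrity and of other cells in the transporter differences was not tested.

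Among the export pumps on design C, Abcc5, which exports cyclic nucleotides, measured 1035 ± 98.6 in congenic kidneys (SD, n = 2) and 743 ± 36.5 in Dahl S kidneys (SD, n = 3). Its log2 difference was 0.48 (SE 0.14, limma adjusted p = 0.775). Another Abcc5 probe set of design C was below the floor in all 5 kidneys. The Abcc5 probe set of design B missed the filter, with a mean of 313 in congenic and 356 in Dahl S kidneys. Abcg2, a pump of urate and many drugs, measured 1178 ± 2.33 in congenic and 924 ± 233 in Dahl S kidneys (limma adjusted p = 0.858), and Abcc4, a luminal pump of organic anions, 781 ± 291 and 732 ± 92.5 (adjusted p = 0.975). All 3 had a positive difference, and none passed the threshold. The organic anion carrier gene Slco4a1 and the nucleoside carrier gene Slc29a3 differed by 0.13 each on the log2 scale on design C. On design B the 2 Slc29a3 probe sets differed by −0.11 and 0.07. Slc22a17 differed by 0.30 on design C and 0.18 on design B, and Slc22a23 by −0.01 on design B.

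Several partners of the carriers lie on chromosome 10, as Slc22a5 does. Slc47a1 (MATE1), the luminal exchanger that passes cations taken up by Slc22a2 into the urine, measured 14069 and 13592 in congenic kidneys 4 and 5 on design B, against 11664, 13398 and 12881 in Dahl S kidneys 1 to 3. The congenic values lay above all Dahl S values, the lower of them only slightly. The strain means differed by 0.13 on the log2 scale (SE 0.13, limma adjusted p = 0.998). The PDZ scaffold Nherf2 measured 937 ± 32.9 in congenic (SD, n = 2) and 605 ± 38.4 in Dahl S kidneys (SD, n = 3) on design C, a log2 difference of 0.63 (limma adjusted p = 0.739). Its design B probe sets past the filter differed by 0.37 and 0.25. Its other design B probe sets missed the filter and had lower means in congenic kidneys. These means were 210 against 218 in Dahl S kidneys (rc_AA900990_at) and 79.7 against 121 (rc_AA900722_at, 4 kidneys below the floor). Nherf1, a related scaffold, differed by 0.45 on design C and 0.16 on design B. Each of these chromosome 10 probe sets that could be tested, of Slc47a1, Nherf2 and Nherf1, had a positive difference, and none passed the threshold. Over all tested probe sets 48.6% on design B and 47.9% on design C were higher in congenic kidneys. Among the marker genes on chromosome 10, Pecam1 differed by −0.02 on design B. On design C Apoh differed by 0.47, Cd68 by 0.06 and Myh4 by 0.16. The share among all chromosome 10 probe sets is not given here.

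On design A the chromosome 10 genes were described by kidney. The dicarboxylate carrier Slc13a2 had a signal of 1157 in kidney 4 and 502 in kidney 5, against 996, 1235 and 947 in Dahl S kidneys 1 to 3. The basolateral pump Abcc3 had 426 and 347 in kidneys 4 and 5, against 402, 499 and 363 in Dahl S kidneys 1 to 3. For both genes kidney 5 was the lowest of the 5, as it was for Slc22a5, and kidney 4 lay within the Dahl S range. Kidney 5 was the lowest for 16.5% of all probe sets past the filter. The endothelial marker Pecam1, also on chromosome 10, was highest in kidney 5, at 1108 against 922, 848 and 988 in Dahl S kidneys 1 to 3. Both probe sets of Abcc1, a basolateral pump, missed the filter. One (X96394_at) was at 257 and 223 in kidneys 4 and 5, against 140, 225 and 144.5 in Dahl S kidneys 1 to 3.

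Of the transcription factors known to act on these genes, Hnf4a was read by 2 probe sets on design C, with log2 differences of 0.18 and, for a probe set outside the naming rule that was added after its value was seen, 0.37 (limma adjusted p = 0.865 each). Its nuclear receptor partner Rxra differed by 0.29 (limma adjusted p = 0.865). Bcl6 differed by 0.72, at 779 ± 78.1 in congenic (SD, n = 2) and 477 ± 79.0 in Dahl S kidneys (SD, n = 3, limma adjusted p = 0.739). On design A an Hnf4a probe set (X57133mRNA_g_at) had the widest range of the lists, 8.67-fold, with 872 and 480 in kidneys 4 and 5 and 473.5, 713 and 100.6 in Dahl S kidneys 1 to 3. The other Hnf4a probe sets of that design, also looked up afterwards, ranged over 0.55 and 0.77 on the log2 scale, so the low value of kidney 3 was not shared by them.

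Besides Hnf4a, the range over the 5 kidneys on design A was 2.46-fold for Slc13a2, 2.003-fold for Abcb4, a phospholipid pump, 1.90-fold for the scaffold Pdzk1 and 1.87-fold for the prostaglandin carrier Slco2a1. Pdzk1 had a signal of 3436 and 3056 in kidneys 4 and 5, against 4693, 5802 and 4707 in Dahl S kidneys 1 to 3. Both lay below every Dahl S kidney on design A. On design C another Pdzk1 probe set, looked up after its value was seen, gave a different order: it measured 1829 and 1645 in congenic kidneys 4 and 5, against 1501, 2429 and 1563 in Dahl S kidneys 1 to 3 (log2 difference −0.04, limma adjusted p = 0.978). The nucleoside carriers Slc28a1, Slc29a1 and Slc29a2 stayed within 1.28-fold to 1.30-fold over the 5 kidneys. Nfe2l2, a regulator of detoxification genes, ranged over 2.14-fold and 2.002-fold in its 2 probe sets, Slc22a13 over 1.68-fold, Slc22a18 over 1.43-fold, Slc22a7 (OAT2) over 1.41-fold, Abcc6 over 1.33-fold and Slco1a4 over 1.18-fold. An Atp1b1 probe set of the sodium pump ranged over 1.85-fold on design A. The other Atp1b1 probe sets of that design, looked up afterwards, ranged over 1.25-fold (the brightest) and 1.47-fold. On design C Atp1b1 differed between the strains by −0.26 on the log2 scale (limma adjusted p = 0.853).

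**Figure D5:**
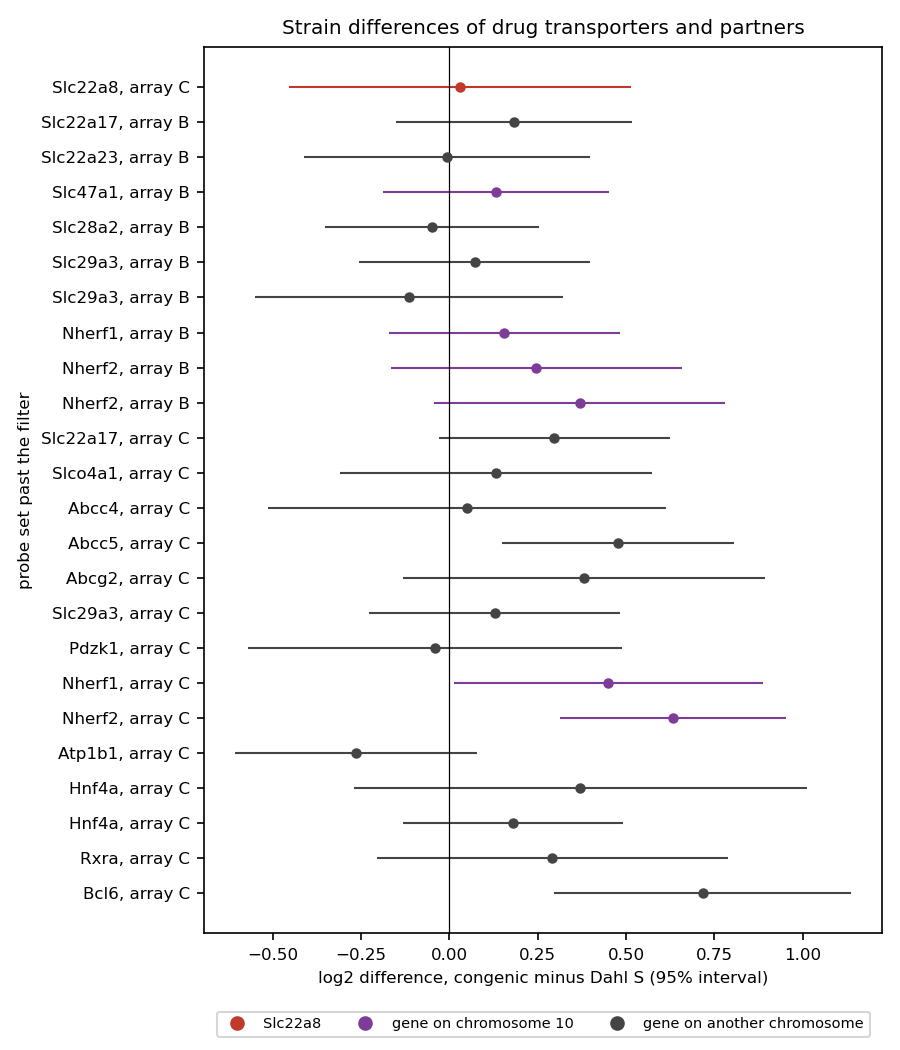
Log2 difference, congenic minus Dahl S (horizontal axis), with its 95% interval from limma, for Slc22a8 (red) and the 23 further probe sets past the filter on designs B and C. Purple marks genes on chromosome 10 and dark grey genes elsewhere. Slc22a8 lies at 0.03, and 18 of the 23 others lie above 0 without passing the adjusted threshold.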

How the data were processed

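The authors deposited linear signal intensities per probe set, between 0 and 92415, and no software or protocol for them is named in the labels. Arrays arrived scaled: trimmed of the extreme 2% at both ends, their means lay between 1000.6 and 1001.3. No rescaling was applied, and background subtraction is unknown. Separately for each design, values below the 25th percentile were set to it, log2 was taken, 59 control probe sets were dropped, and probe sets with a mean under the median were left out. Probe set symbols from the platform annotation were updated by gene identifier to GRCr8 names, and those with several symbols were not named.

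On B and C, congenic (n = 2) and Dahl S (n = 3) kidneys were compared with limma 3.58.1 (R 4.3.3; lmFit, eBayes), with Benjamini-Hochberg adjustment over all probe sets tested on the design. The procedure was tested on simulated data. The members and gene lists were chosen with earlier results of these data known. All members were named. From each list, probe sets past the threshold, or else the 3 with the smallest p, were named on B and C, and on A the 3 with the widest range and those on chromosome 10. Sex-linked markers were not analysed here. Normalisation, floor, filter, variance model and each kidney left out were varied.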

Additional observations from a re-analysis of the deposited data

How the results depend on the processing

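The log2 difference of Slc22a8 stayed near 0 (0.02 to 0.08) under quantile normalisation, other floors, other filters, an intensity trend and array weights, and was −0.0026 with median scaling. It lay between −0.23 and 0.29 when single kidneys were left out, and it never passed the threshold. On design B, where 4 probe sets passed, none of them in the lists used here, 1 passed under each of array weights, a filter at the 75th percentile, the 10th or 40th percentile as the floor, median scaling and quantile normalisation, and 0 without a filter (probe sets at the floor on every array were then left out). Leaving out single kidneys gave 0 to 31, with 0 without any 1 of the Dahl S kidneys and 31 without congenic kidney 5. On design C, where limma passed 0 probe sets (274 at an unadjusted p under 0.05), 1 passed without a filter, 1 with an intensity trend and robust variance, and 0 to 34 without single kidneys, 34 being without congenic kidney 5. No paired analysis was possible because the strains share no kidney number. Quantile normalisation and median scaling, tried for the kidney pattern after seeing the data, kept kidney 4 above kidney 5 for all 5 carriers. Under quantile normalisation the lowest Slc22a8 kidney was 3 in place of 5, and under median scaling the highest Slco1a1 kidney was 4 in place of 2. The Dahl S means of the 4 measured carriers of design A moved by less than their SD, while those of Abcb1a, Abcb1b and Abcc2 moved with the floor.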
